A study of Mus musculus with 13 samples.

Results

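Nurr1 (gene symbol Nr4a2) and Foxa2 were delivered together by lentivirus to cultured hippocampal glia under amyloid beta, and the RNA of that culture was set against glia that received control lentivirus and amyloid beta. The comparison holds 2 of the 13 libraries of the series, 1 per condition, and was read over the 13814 gene symbols that reached 1 CPM (the count scaled by the library total) in either of them, out of 24542 symbols counted. The glia came from the hippocampus of ICR strain pups at postnatal day 1. All culture groups used here carried a lentivirus. The untreated hippocampal library had control lentivirus and no amyloid beta, and its levels are given below only as a description. A cortical pair, also of postnatal day 1 ICR pups, repeated control lentivirus with amyloid beta against Nurr1 plus Foxa2 lentivirus with amyloid beta. In the tissue set, 7 hippocampus libraries came from 3xTg mice, 3 with control AAV9 and 4 with AAV9 for both factors, and the labels list amyloid beta as the treatment of these too. The amyloid beta dose and duration, the promoter of the vectors and the number of pups behind each culture could not be read from the sources used here.

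Nurr1 is an orphan nuclear receptor that binds DNA as a monomer or dimer and is required for midbrain dopamine neurons, where it controls dopamine synthesis and transport genes. In microglia and astrocytes it is known to hold back inflammatory genes through the NF-kB complex. Foxa2 is a forkhead pioneer factor of the floor plate, endoderm and liver, and acts with Nurr1 in dopamine neuron development. Cultured glia of newborn rodents are mostly astrocytes with some microglia, and amyloid beta drives both towards a reactive, inflammatory state.

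The control library held 74717389 counts and the library with both factors, written N+F below, held 60465788. With 1 library per condition there is no replicate check and no p-value. Differences are given as log2 of the N+F over the control value, each with 1 CPM added, and a gene counts as higher or lower from 2-fold on that scale. Intervals are 95% counting intervals that cover counting error only. All 15 astrocyte markers reached 1 CPM, with a summed level of 12873 CPM in the control and 8880 CPM with N+F. Microglia markers were far lower, at 239 and 201 CPM, and Siglech, which marks microglia, had no count in either. Neuron markers summed to 485 and 504 CPM, against 16940 CPM in the untreated library. Oligodendrocyte markers summed to 316 and 268 CPM, against 10020 CPM untreated. Proliferation genes went the other way, with 2568 and 3826 CPM against 298 CPM untreated, and astrocyte markers were nearer, at 10980 CPM untreated. Untreated levels thus hold any difference in cell content too and are no measure of resting glia. In a bulk culture fewer cells of a type and less RNA per cell cannot be told apart.

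Promoters of 4 genes are shown as examples. They include a gene with no count in the control and the vesicular monoamine transporter of dopamine neurons. A microglial chemokine and an astrocyte enzyme, both lower, complete them. Most promoter windows held no motif, as given below, so these examples are not typical in that respect. Each is the 250 bases before the transcription start from RefSeq on GRCm38.p6, read 5′ to 3′ on the gene's strand. Capitals mark letters that match the Nurr1 monomer site AAAGGTCA, which reads TGACCTTT on the opposite strand, or the forkhead core TGTTTAC.
Akr1b7 (chr6:34412112-34412361, plus strand, higher): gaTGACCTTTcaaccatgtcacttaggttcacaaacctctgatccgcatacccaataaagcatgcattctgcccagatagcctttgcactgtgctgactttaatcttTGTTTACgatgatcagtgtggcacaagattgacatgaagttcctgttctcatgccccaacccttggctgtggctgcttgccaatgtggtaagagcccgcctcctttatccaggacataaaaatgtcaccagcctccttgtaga
Slc18a2 (chr19:59260628-59260877, plus strand, higher): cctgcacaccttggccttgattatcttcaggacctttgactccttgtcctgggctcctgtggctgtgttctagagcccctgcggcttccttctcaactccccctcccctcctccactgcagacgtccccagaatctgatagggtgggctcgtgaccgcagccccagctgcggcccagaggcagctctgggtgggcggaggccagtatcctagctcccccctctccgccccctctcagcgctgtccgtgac
Ccl6 (chr11:83593088-83593337, minus strand, lower): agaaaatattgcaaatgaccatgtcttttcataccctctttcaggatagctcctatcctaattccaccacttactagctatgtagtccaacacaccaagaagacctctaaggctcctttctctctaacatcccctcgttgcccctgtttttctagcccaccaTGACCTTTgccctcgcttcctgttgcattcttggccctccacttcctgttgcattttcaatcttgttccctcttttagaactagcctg
Aldoc (chr11:78323948-78324197, plus strand, lower): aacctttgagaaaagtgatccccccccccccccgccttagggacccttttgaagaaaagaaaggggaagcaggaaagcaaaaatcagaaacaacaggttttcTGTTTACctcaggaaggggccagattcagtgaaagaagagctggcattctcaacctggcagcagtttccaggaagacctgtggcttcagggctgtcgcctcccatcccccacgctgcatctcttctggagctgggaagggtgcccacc

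Akr1b7 held both motifs, the Nurr1 letters beginning 248 bases and the forkhead letters 143 bases before the start. Slc18a2 held neither in its window, and Aldoc has a second RefSeq start whose window held neither. Among the 12 highest genes 1 of 11 windows held the Nurr1 letters and 1 the forkhead letters. Of 14 windows of the 12 lowest genes 0 held either. Both strands were searched for AAAGGTCA and for TGTTTAC or TATTTAC in windows of 300 bases, which also take the 50 bases after each start. The Nurr1 letters stood in 0.990% of 707 windows of genes that were higher, and in 3.06% of 98 windows of genes that were lower (3 windows). They stood in 0.967% of the 13548 windows of all genes kept and in 1.51% of all 32851 promoter windows. Forkhead letters stood in 5.09% of the windows of higher genes, 9.18% of those of lower genes (9 windows), 4.05% of those of all genes kept and 6.54% of all promoter windows. A match in these letters is a description of the sequence, and binding was not measured.

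Both delivered genes were detected at high level in the N+F library. Nr4a2 measured 58.3 CPM in untreated glia, 3.35 CPM in the amyloid beta control and 488 CPM with N+F, 146 times the control (counting interval 129 to 166). Foxa2, which had no count in untreated or control glia, measured 140.28 CPM with N+F and was at least 3494-fold higher against a floor of 3 counts per library. The sources used here do not state if vector transcripts fall under these symbols. Cortical glia carried less of both, with Nr4a2 at 36.9 CPM and Foxa2 at 13.5 CPM after N+F. The hippocampal N+F level was 13.2 times the cortical one for Nr4a2 and 10.4 times for Foxa2. Among the relatives of Nr4a2, the early-response receptor Nr4a3 was 1.15 CPM in the control and 4.45 CPM with N+F (log2 ratio 1.34), and Nr4a1 was 5.26 and 7.24 CPM (0.40). Foxa1 and Foxa3 stayed under 1 CPM in both libraries.

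Of the 13814 genes, 773 were at least 2-fold higher with N+F, which is 5.6% of those tested, and 106 were at least 2-fold lower, which is 0.767%. Ratios were positive in 8891 of the 13814 (64.4%). Counts of list members below are to be read beside these shares. Most genes lay close to the line of equality, with 12935 under 2-fold and a median log2 ratio of 0.12. That median was -0.01 under TMM scaling, which lowered the median of all genes by 0.12, gave 627 higher and 161 lower genes and moved the share of higher calls from 87.9% to 79.6%. At least 4-fold differences numbered 166 higher and 8 lower. Many of the higher genes were barely present in the control: 245 of the 773 were under 1 CPM there, 52 of these with no count, so that they entered only through the N+F library. Among 2488 genes averaging 100 CPM or more over the 2 libraries, 31 were higher and 22 lower, 1.25% and 0.884%. The shares were larger among 3329 genes averaging 1 to under 10 CPM, with 374 higher (11.2%) and 42 lower (1.26%). Values just inside and just outside the 2-fold limit were 1.0007 and 0.9990 above and -1.0004 and -0.9989 below.

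**Figure D1:**
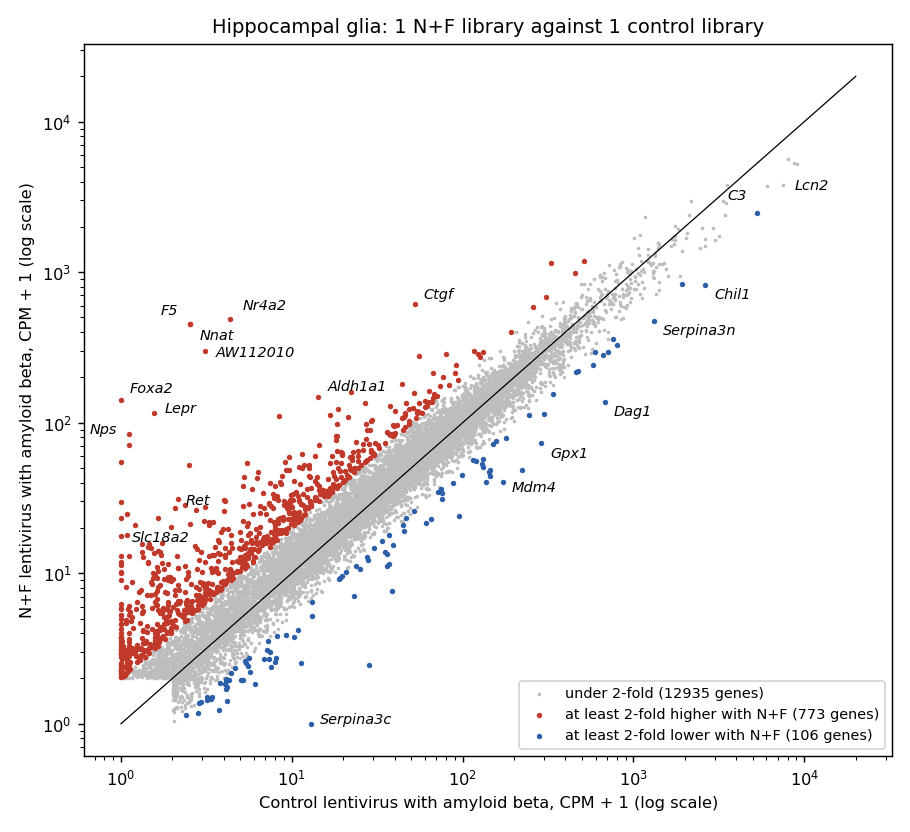
Each point is 1 gene, with its CPM + 1 in the control library on the x axis and in the N+F library on the y axis, both on log scales, and the line marks equality. The 773 higher genes (red) are mostly at the low end of the control axis and include Nr4a2, Foxa2, Nnat and F5, whereas the 106 lower genes (blue) include abundant glial transcripts such as Chil1 and Serpina3n.

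The genes with the highest ratios after the delivered ones were a mixed group, in which some code for secreted proteins, a receptor or transporters. Nnat, neuronatin, a small membrane protein of developing neurons, was 1.54 CPM in the control and 452 CPM with N+F, 294 times higher (244 to 356). The untreated library, which also held far more neuron marker RNA, had 342 CPM of Nnat. F5, coagulation factor V, went from 1.53 to 449 CPM, 295 times higher (245 to 357), with 50.8 CPM in untreated glia. AW112010, an RNA known from activated myeloid cells, went from 2.10 to 298 CPM, with 1.14 CPM untreated, so this one lay far above both other hippocampal libraries. Nps, the precursor of neuropeptide S, rested on 9 control counts (0.12 CPM) and reached 82.6 CPM. Lepr, the leptin receptor, went from 0.562 to 115 CPM, 205 times higher (151 to 285), with 8.88 CPM untreated.

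Another 4 of these 12 genes had no count in the control. Kng1, kininogen, the plasma precursor of bradykinin, reached 54.1 CPM, at least 1348-fold higher. Upk1b, a uroplakin of the urinary tract epithelium, reached 28.7 CPM (at least 714-fold), and Akr1b7, an aldo-keto reductase, 22.2 CPM (at least 554-fold). Slc18a2, the transporter of dopamine neurons that loads dopamine into vesicles, reached 16.5 CPM, at least 412-fold higher, and had 1.85 CPM in untreated glia. The other 3 were the bicarbonate transporter Slc4a9 (0.107 to 70.5 CPM), the Rab27 effector Exph5 (0.0803 to 23.7 CPM) and the adipogenesis gene Medag (1.5 to 51.4 CPM). Untreated levels are set beside these values as a description, because any comparison of the untreated library with the control would share that control.

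**Figure D2:**
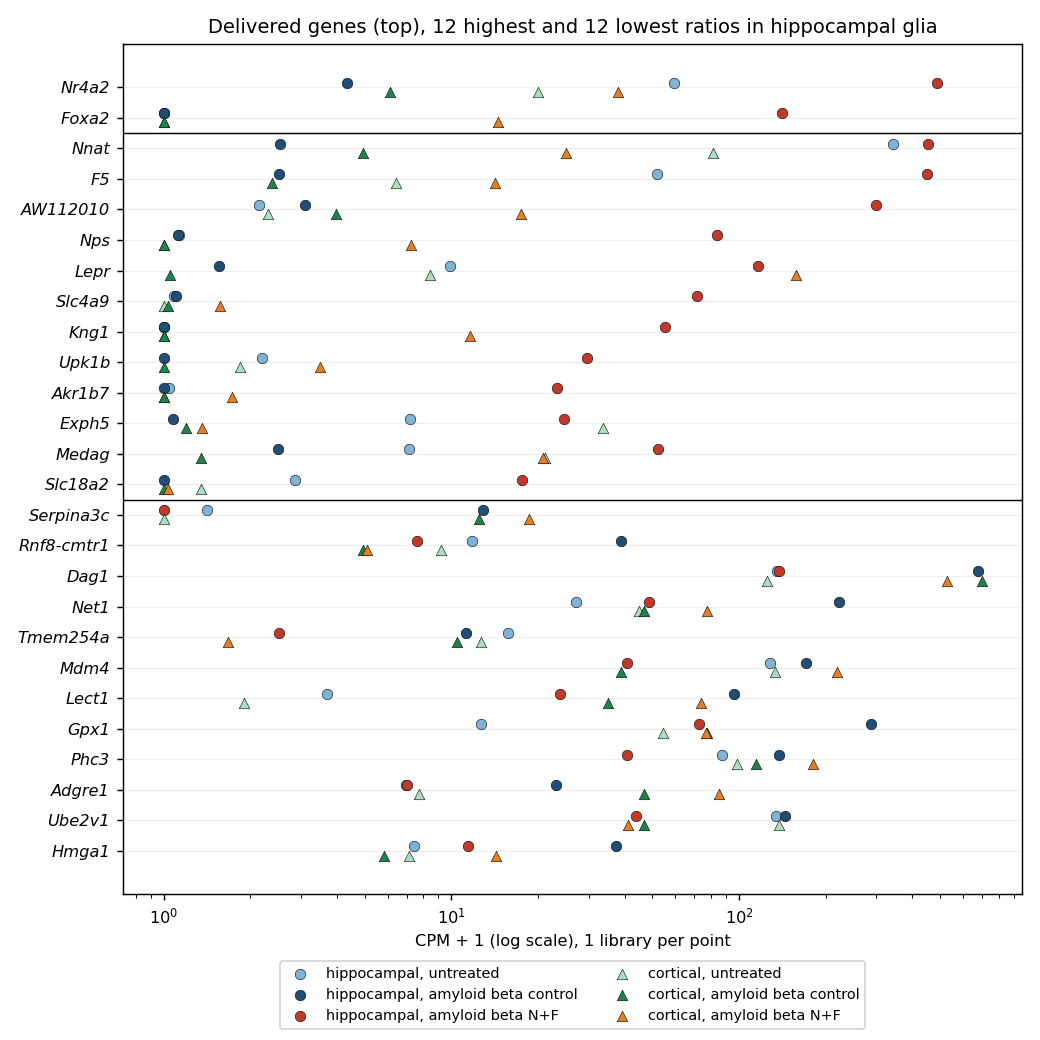
Points show CPM + 1 on a log axis for the 2 delivered genes and the 12 genes with the highest and 12 with the lowest ratios, 1 library per point, circles for hippocampal and triangles for cortical glia. For the 12 highest the hippocampal N+F library (red) lies right of both other hippocampal libraries, and for Lepr the cortical N+F library (orange) lies further right still, at 157 CPM.

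Several genes of dopamine neurons were higher, while the key genes of dopamine synthesis and uptake stayed under 1 CPM. Leaving out the 2 delivered genes, 7 of 21 listed genes reached 1 CPM and 14 stayed under it in both libraries. Of the 7, 6 were at least 2-fold higher, against 5.6% of all genes. Of the 6, Slc18a2 and Pitx3 reached 1 CPM only with N+F, and of the 5 genes already at 1 CPM in the control 4 were higher. Aldh1a1, a retinaldehyde dehydrogenase of ventral midbrain dopamine neurons, went from 13.3 to 148 CPM, 11.1 times higher (10.4 to 11.9), and was 62.6 CPM in untreated glia. Ret, the receptor for GDNF family ligands, went from 1.06 to 26.0 CPM, 24.6 times higher (19.6 to 31.3). Pitx3, a transcription factor that acts with Nurr1, went from 0.415 to 3.04 CPM, and its untreated level was 0. Smaller ratios were seen for Gch1, which makes the cofactor of tyrosine hydroxylase (9.94 to 24.3 CPM, log2 ratio 1.21), and for the guidance cue Ntn1 (61.2 to 128 CPM, 1.06). Th, tyrosine hydroxylase itself, stayed under 1 CPM with 19 and 59 counts (0.254 and 0.976 CPM), and the dopamine transporter Slc6a3 had 4 and 6 counts. Neuron markers as a list did not move alike. Of the 15 that reached 1 CPM, 3 were higher (20%, against 5.6% of all genes), namely Nefm, Snhg11 and Map2. The list median was 0.19, and 3 of the 15 reached 1 CPM only with N+F.

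Some genes of the other tissues in which Foxa2 acts were higher. Leaving out Foxa2, 14 of 51 listed endoderm, liver and floor plate genes reached 1 CPM and 37 stayed under it in both libraries. Of the 14, 6 were higher, against 5.6% of all genes. Fgb, the fibrinogen beta chain of liver, had no control count and reached 8.07 CPM, at least 201-fold higher. Epcam, an epithelial adhesion protein, had no control count and reached 3.57 CPM, at least 89.0-fold higher. Shh, the signal secreted by the floor plate, went from 0.857 to 6.38 CPM, 7.45 times higher (5.71 to 9.87), and Gli1, a transcription factor and target of that signal, from 0.87 to 3.04 CPM. Spon1, F-spondin of the floor plate, went from 20.3 to 109 CPM, with 106 CPM untreated. Prox1 (7.33 to 21.9 CPM) and the keratin Krt19 (0.134 to 1.57 CPM) were the remaining higher members. Of the 7 genes already at 1 CPM in the control, 2 were higher.

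Microglial transcripts were in part lower in the N+F library. Of 18 microglia and macrophage markers that reached 1 CPM, 7 were at least 2-fold lower (38.9%, against 0.767% of all genes) and 0 higher. Their median log2 ratio was -0.79, with 3 positive ratios. The summed level of the list fell less, from 239 CPM in the control to 201 CPM with N+F. Of the 18, 5 were at 1 CPM only in the control. C1qc, a chain of the complement starter C1q, was 7.11 CPM in the control and 1.74 CPM with N+F, 0.244 times the control (0.196 to 0.302). Its partners C1qa (9.81 to 3.22 CPM) and C1qb (4.60 to 1.72 CPM) were lower too. Tyrobp, the signalling adaptor of TREM2, went from 4.15 to 0.943 CPM, and the lysosomal protease Ctss from 9.36 to 2.76 CPM. Adgre1, the macrophage antigen F4/80, went from 22.1 to 6.04 CPM, with 5.95 CPM untreated. Trem2, a lipid receptor of microglia, was not lower, at 1.10 and 1.36 CPM.

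Complement and disease-associated microglia genes also had negative medians. Of 20 complement genes 4 were lower (20%, against 0.767% of all genes) and 2 higher (10%, against 5.6%). Their median was -0.60, with 15 negative ratios. The 4 lower ones were C1qa, C1qb, C1qc and the anaphylatoxin receptor C3ar1 (8.24 to 2.88 CPM), and the higher ones were C4b and the complement inhibitor Cd55. C3, the central complement component made by reactive astrocytes, measured 6072 and 3737 CPM (log2 ratio -0.70), against 1.45 CPM in untreated glia. Of 23 disease-associated microglia genes 5 were lower (21.7%, against 0.767% of all genes) and 2 higher (8.70%, against 5.6%). Their median was -0.47. Of the 23, 3 reached 1 CPM only in the control, which the count and median partly rest on. The lower ones were the chemokine Ccl6 (5.06 to 0.827 CPM), lysozyme Lyz2 (142 to 45.8 CPM), Tyrobp, Cd52 and Apoe, with Lpl and Igf1 in the other direction. The part of the lower microglia markers in these lists was not tested.

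Astrocyte genes were lower as a group, by less than 2-fold in most members. Of 22 homeostatic astrocyte genes 20 had negative ratios, with a median of -0.52, and 4 were at least 2-fold lower (18.2%, against 0.767% of all genes). Atp1b2, a subunit of the sodium pump, went from 1919 to 835 CPM, 0.435 times the control (0.431 to 0.440). Aldoc, the brain aldolase whose promoter is printed above, went from 753 to 358 CPM (0.475 times), and the gap junction gene Gjb6 from 4.38 to 1.54 CPM. The water channel Aqp4 (1403 and 1141 CPM) and the glutamate transporter Slc1a2 (753 and 676 CPM) differed by far less than 2-fold. Apoe, the lipid carrier of astrocytes and microglia, went from 5274 to 2488 CPM, 0.472 times the control (0.469 to 0.475).

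Reactive astrocyte genes differed in both directions. Of 38 measured, 5 were higher (13.2%, against 5.6% of all genes) and 4 lower (10.5%, against 0.767% of all genes), with a median of -0.12. Chil1, the secreted chitinase-like protein known as YKL-40, went from 2633 to 826 CPM, 0.314 times the control (0.311 to 0.317), with 6.82 CPM in untreated glia. Serpina3n, a secreted protease inhibitor, went from 1316 to 474 CPM, 0.360 times (0.356 to 0.365), with 128 CPM untreated. Emp1 (60.3 to 20.5 CPM) and Timp1 (243 to 112 CPM) were the other lower members. Lcn2, lipocalin-2, went from 7535 to 3794 CPM, just short of 2-fold, with 0.873 CPM in untreated glia. On the other side were Tm4sf1 (54.5 to 276 CPM), the TGF-beta co-receptor Cd109 (328 to 1155 CPM), the glycosyltransferase B3gnt5, the proteoglycan Srgn and S100a10 (log2 ratio 1.08). Gfap and Vim, the intermediate filaments of reactive astrocytes, had log2 ratios of -0.66 and -0.52.

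In the Serpina3 cluster 7 genes reached 1 CPM, and 5 of them were lower, against 0.767% of all genes. This group was singled out after its values were seen. Besides Serpina3n these were Serpina3c (11.9 CPM to no count, at least 240-fold lower), Serpina3h (575 to 242 CPM), Serpina3i (97.9 to 43.8 CPM) and Serpina3m (38.1 to 14.5 CPM). Serpina3f went the other way, from 0.0937 to 4.80 CPM. These genes are closely similar copies, so how reads were shared among them is uncertain. All 7 had positive ratios in cortical glia.

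Cytokine and NF-kB genes showed no common direction. Of 22 cytokine and chemokine genes that reached 1 CPM, 3 were lower (13.6%, against 0.767% of all genes) and 4 higher (18.2%, against 5.6%). Their median was -0.20. Tnf, the early inflammatory cytokine, had 144 counts in the control and 24 with N+F (1.93 and 0.397 CPM), 0.206 times the control (0.128 to 0.319). The chemokines Ccl3 (5.84 to 1.69 CPM) and Cxcl5 (18.7 to 8.52 CPM) were also lower, while Il33 (7.56 to 22.1 CPM), Lif (15.6 to 34.5 CPM), Tnfsf11 and Ccl20 were higher. Ccl2 and Cxcl10 had log2 ratios of -0.54 and -0.57, and Il1b stayed under 1 CPM. Of 28 Toll-like receptor and NF-kB genes 2 were higher (7.14%, against 5.6% of all genes) and 0 lower. These were the deubiquitinase Tnfaip3 (28.6 to 104 CPM, 3.64 times, 3.46 to 3.82) and Irak3 (4.44 to 11.9 CPM). With a pseudocount of 0.1 CPM 4 were higher, including Rel (1.02) and Ly96 (1.27). The list median was 0.06, and -0.07 under TMM scaling. Of 15 inflammatory enzyme genes 2 were higher (13.3%, against 5.6% of all genes) and 1 lower (6.67%, against 0.767%). The inducible nitric oxide synthase Nos2 (6.52 to 17.9 CPM) and Alox5 were higher and the NADPH oxidase subunit Ncf1 lower. Of 32 interferon-stimulated genes 1 was higher, Ifi27l2a (3.1%, against 5.6% of all genes), and 0 lower.

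Antioxidant and iron-handling genes had negative medians. Of 31 antioxidant genes 4 were lower (12.9%, against 0.767% of all genes) and 1 was higher (3.23%, against 5.6%). Negative ratios numbered 21, and the median was -0.17. Gpx1, a glutathione peroxidase, went from 287 to 71.8 CPM, although 2 of its 3 lines in the table were higher. Hmox1, heme oxygenase 1, went from 663 to 280 CPM, 0.423 times the control (0.416 to 0.431), with 4.10 CPM untreated. Slc7a11, the cystine transporter, went from 131 to 56.1 CPM and Srxn1 from 463 to 215 CPM. Ucp2, a mitochondrial carrier, was the higher one (8.46 to 28.1 CPM). Of 11 metallothionein and iron genes none reached 2-fold, and their median was -0.53, with Mt3 at -0.80 and Fth1, ferritin heavy chain, at -0.78.

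**Figure D3:**
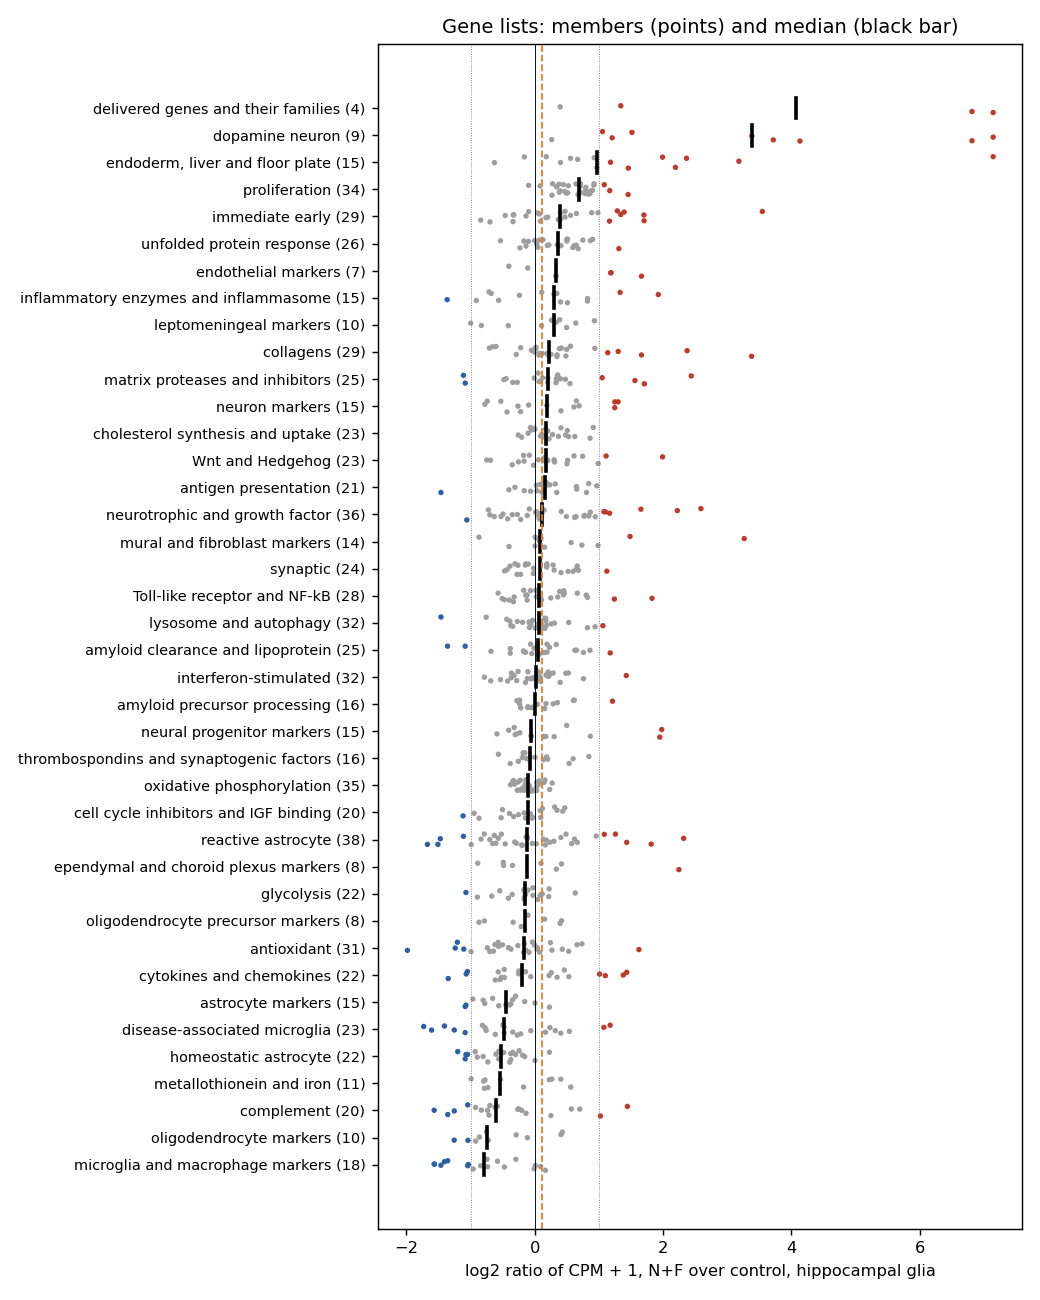
Each point is 1 member gene that reached 1 CPM, placed by its log2 ratio of CPM + 1, red for at least 2-fold higher and blue for at least 2-fold lower, with a black bar at each list median. Numbers in parentheses count these genes, and the dashed line is the median of all 13814 genes, 0.12. The dopamine neuron and endoderm lists, which lie to the right, include delivered genes, and 3 of 9 and 8 of 15 of their points reached 1 CPM only with N+F; microglia, complement and astrocyte medians lie to the left, and 5 of 18 microglia points reached 1 CPM only in the control.

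Some secreted growth factors of the TGF-beta family and others were higher. Of 36 neurotrophic and growth factor genes 6 were higher (16.7%, against 5.6% of all genes) and 1 lower (2.78%, against 0.767%). Their median was 0.11 (-0.01 under TMM scaling), and 3 of the 36 reached 1 CPM only with N+F. Bmp4, a TGF-beta family ligand that drives astrocyte differentiation, went from 8.14 to 54.0 CPM, 6.64 times higher (6.08 to 7.25). Bmp7 went from 0.923 to 7.97 CPM, and Inhba, which forms activin A, from 8.74 to 29.7 CPM. Tgfb1 (7.13 to 17.2 CPM), Igf1 (6.50 to 14.8 CPM) and Lif were the others, and Bmp6 was lower (log2 ratio -1.06). Bdnf, at 6.95 and 14.3 CPM, had a log2 ratio of 0.94, and Gdnf, at 2.20 and 3.92 CPM, one of 0.62.

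Proliferation and immediate early genes had positive medians. Of 34 proliferation genes 33 had positive ratios, against 64.4% of all genes, with a median of 0.69 (0.57 under TMM scaling). Of the 34, though, 3 passed 2-fold (8.82%, against 5.6% of all genes). Mki67, the marker of cycling cells, went from 9.05 to 26.5 CPM, 2.93 times higher (2.68 to 3.21), and Top2a from 33.9 to 59.0 CPM. Of 29 immediate early genes 7 were higher (24.1%, against 5.6% of all genes) and 0 lower, with a median of 0.40. Of the 29, 2 reached 1 CPM only with N+F. Ctgf, a matrix protein controlled by YAP signalling, went from 51.4 to 611 CPM, 11.9 times higher, with 12.2 CPM untreated. Egr1 went from 26.5 to 88.3 CPM and the phosphatase Dusp6 from 21.6 to 58.3 CPM, and Egr3, Dusp1, Fosl1 and Nr4a3 were the remaining members. Of 26 unfolded protein response genes 1 was higher, Sdf2l1 (3.85%, against 5.6% of all genes). Positive ratios numbered 20 of the 26, with Hspa5, the main endoplasmic reticulum chaperone, at 0.61.

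Matrix genes included a few with large ratios. Of 29 collagen genes 5 were higher (17.2%, against 5.6% of all genes) and 0 lower, led by Col14a1 (0.335 to 12.9 CPM) and Col27a1 (4.59 to 28.0 CPM). The list median was 0.22, and 2 of the 29 reached 1 CPM only with N+F. Col6a1 and Col6a2, chains of collagen VI, had log2 ratios of -0.71 and -0.66. Among matrix proteases, Mmp3 was higher (4.18 to 27.1 CPM) and Mmp9 lower (2.17 to 0.496 CPM). Beside these, 2 of 14 mural and fibroblast markers were higher (14.3%, against 5.6% of all genes), Postn (1.75 to 25.5 CPM) and Myh11. The summed level of that list was 3710 CPM in the control and 4826 CPM with N+F. The part of these markers in the matrix genes was not tested.

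Genes that make amyloid differed little, and 2 that clear it were lower. Of 16 amyloid precursor processing genes 1 was higher (6.25%, near the 5.6% of all genes), the App relative Aplp2 (509 to 1180 CPM), and 0 lower. Their median of 0.00 turned to -0.13 under TMM scaling. Of 25 clearance genes 2 were lower (8%, against 0.767% of all genes), Apoe and the scavenger receptor Msr1 (4.66 to 1.21 CPM). Lpl alone was higher (4%, against 5.6% of all genes). The list median was 0.05, and the amyloid-degrading peptidase Mme, neprilysin, was 27.9 and 51.4 CPM (0.86). Few genes of the metabolic lists passed the 2-fold limit, with 0 of 35 oxidative phosphorylation genes and 0 of 23 cholesterol genes beyond it. Of 22 glycolysis genes Aldoc alone was lower (4.55%, against 0.767% of all genes).

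The 12 genes with the lowest ratios, which include Serpina3c, Gpx1 and Adgre1 described above, were a mixed set, and 9 of them have more than 1 line per symbol in the table, against 35.4% of all genes kept. Dag1, dystroglycan, went from 678 to 137 CPM, 0.201 times the control (0.197 to 0.206), with 134 CPM untreated. Net1, an exchange factor for RhoA, went from 221 to 47.5 CPM, with 26.2 CPM untreated. Mdm4, an inhibitor of p53, went from 170 to 39.6 CPM, with 127 CPM untreated. Lect1, a cartilage protein, went from 94.7 to 22.9 CPM. Tmem254a (10.3 to 1.52 CPM) has a near-identical copy, Tmem254c, which went from 2.10 to 26.7 CPM, so these 2 ratios are uncertain. Rnf8-cmtr1 is a readthrough of neighbouring genes and equally uncertain. Hmga1, a chromatin protein with 14 lines, went from 36.2 to 10.4 CPM as a sum, but its line with the most counts gave a log2 ratio of 2.13, so its direction depends on how lines are joined. Phc3 and Ube2v1 completed the set with -1.76 and -1.71.

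The cortical pair shares no library with the hippocampal one and moved far more genes. There 1799 of 13999 genes passed 2-fold upwards (12.9%) and 2110 downwards (15.1%). Of the 773 genes higher in hippocampal glia, 279 (36.1%) were also 2-fold higher in cortical glia, which is 15.5% of the cortical higher genes, and 75 (9.70%) were lower. Over all genes kept in the hippocampal pair these shares were 11.3% and 15.03%. Of the 106 lower genes, 16 (15.1%) were lower in cortical glia too, near the 15.03% of all genes kept, and 26 (24.5%) were higher. The difference between regions was not tested, because each region and condition had 1 library.

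All 12 of the highest hippocampal genes had positive cortical ratios and 8 passed 2-fold. Lepr was 0.0494 CPM in the cortical control and 157 CPM with N+F (log2 ratio 7.23), and Medag 0.346 and 19.9 CPM (3.96). Kng1 had no cortical control count and 10.6 CPM with N+F, at least 215-fold higher. Slc18a2 was the contrast, with no count in the cortical control and 0.0383 CPM after N+F. Of the 7 measured dopamine neuron genes beside the delivered ones 1 was higher in cortical glia, Gch1 (log2 ratio 1.05), while Aldh1a1 (39.4 and 42.7 CPM) and Ret (4.41 and 8.42 CPM) stayed under 2-fold. The microglia list had a cortical median of 0.72, complement 0.75 and disease-associated microglia 1.09, where the hippocampal medians were -0.79, -0.60 and -0.47. Lyz2 was 310 and 956 CPM in the cortical pair, and Chil1 1727 and 2855 CPM. Homeostatic astrocyte genes had negative medians in both, -0.52 and -0.80. Cortical N+F glia also had more of the mural and fibroblast markers, with a median of 2.26 and a summed level of 16946 against 2713 CPM, and the part of that difference was not tested.

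**Figure D4:**
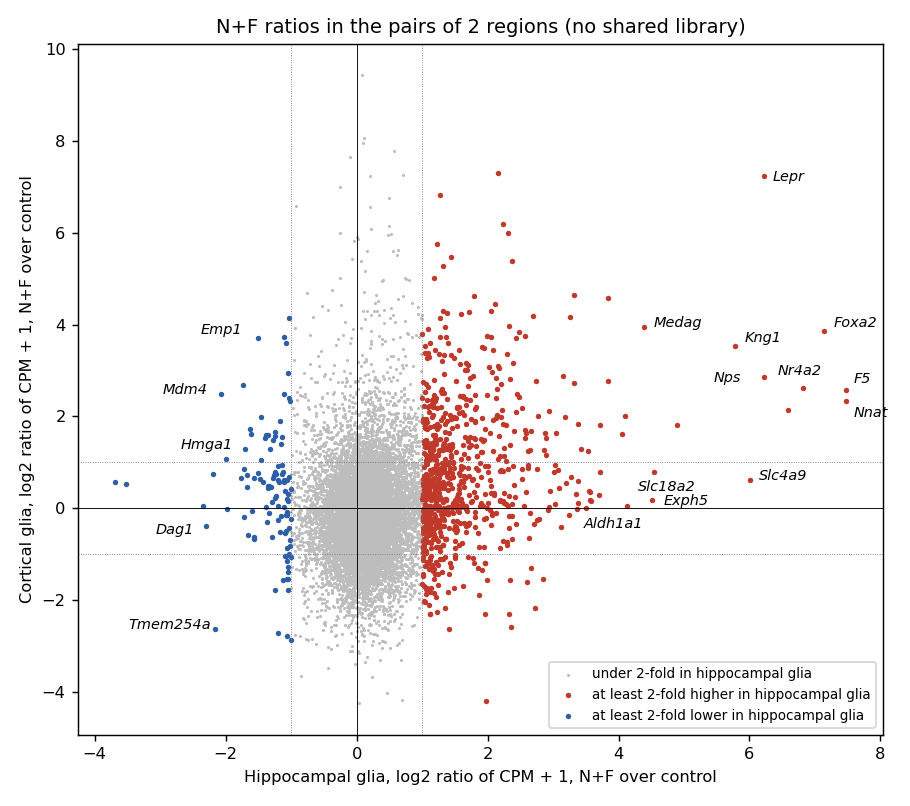
Each point is 1 of the 13814 genes, with the log2 ratio of N+F over control in hippocampal glia on the x axis and in cortical glia on the y axis, coloured by the hippocampal call, and dotted lines mark 2-fold. Lepr, Foxa2, Kng1 and Medag lie high in both pairs, Slc18a2, Exph5 and Aldh1a1 lie near 0 on the cortical axis, and Mdm4, Hmga1 and Emp1 lie on opposite sides.

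In 3xTg hippocampus with AAV9 neither delivered gene separated the groups. Nr4a2 was 19.4, 33.4 and 45.1 CPM in the 3 control libraries and 22.1, 22.5, 26.6 and 34.2 CPM in the 4 N+F libraries, so the groups overlapped. Foxa2 was 0.0795, 0.0827 and 0.199 CPM in the controls and 0.0883, 0.449, 0.489 and 2.55 CPM with N+F, so 3 N+F libraries lay above all controls and 1 among them. Of the 773 genes higher in hippocampal glia 669 were measured in tissue, and in 13 of them (1.94%) all N+F libraries lay above all controls, against 2.1% of all tissue genes. In 45 (6.73%) all lay below, against 6.7%. Of 94 measured genes that were lower in glia, 15 (15.96%) lay below all controls in tissue, against 6.7% of all tissue genes, and 1 (1.06%) above, against 2.1%. Of the 24 named highest and lowest genes 20 were measured in tissue, and the groups overlapped in each.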

How the data were processed

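Gene expression was deposited by the authors as whole-number counts per gene symbol, 1 column per library, and each column matched 1 sample title (0 columns unused). RNA was extracted with Trizol and made into libraries with the SMARTER mRNA-Seq kit, as stated per the labels. The tools TopHat, HISAT2 and edgeR, and the human build hg19, are named without role, per the submitters' processing notes. The tables hold mouse symbols, so no build was assumed for the counts. Strand use could not be read from the sources. The culture table had 36780 lines for 24542 symbols. Where a symbol had several lines, their counts were added up. If a read had been counted on several lines, its gene's level is too high and its counting interval too narrow. Counts were divided by the library total (74717389 in the control, 60465788 with N+F) to give CPM. Genes of 1 CPM or more in either library were kept, and a log2 ratio of CPM + 1 of at least 1 in size was called. Ratios of counts carry 95% exact conditional binomial (Clopper-Pearson) intervals, and a count of 0 allows 3 counts (0.0402 CPM in the control, 0.0496 CPM with N+F). These cover counting error only. The calculation of ratios and intervals was run on simulated counts with counting error only, without spread between cultures or repeated lines. That run checks the calculation and not these libraries. TMM factors came from edgeR 4.0.16 in R 4.3.3 and were used for scaling only. Named genes were the 12 highest and 12 lowest ratios among genes of at least 10 CPM in the higher library, leaving out the delivered genes, predicted genes and microRNA or snoRNA hosts, and up to 5 members with the largest ratio in each of 30 pathway and 11 marker lists. Other list members were named to complete a list's calls or for their known role, with their values seen. The comparison, the gene lists and the naming rule were chosen with earlier results of these data known. Alternatives covered scaling, pseudocount, filter, fold and the joining of lines. Of the kept symbols, 13788 matched a current or older mouse symbol. Promoter windows are those of RefSeq on GRCm38.p6, matched by symbol for 544 of 773 higher and 71 of 106 lower genes.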

Additional observations from a re-analysis of the deposited data

Results flagged for a closer look

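Of the 12 highest and 12 lowest genes, 3 were at least 2-fold apart in opposite directions in the 2 regions. Genes named only as list members are not in this count. The difference was not tested because each region and condition had 1 library. Mdm4 had log2 ratios of -2.08 in hippocampal and 2.49 in cortical glia, Lect1 -2.0 and 1.07, and Hmga1 -1.70 and 1.29. Over all genes kept, 75 were higher in hippocampal and lower in cortical glia and 26 the reverse.

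In the 3xTg hippocampus, 1 of the 4 N+F libraries lay far from the rest for Foxa2, at 2.55 CPM against 0.0883, 0.449 and 0.489 CPM. For Kng1 a different N+F library had 2.20 CPM while the other 3 and all controls had no count. These were 2 of 22 groups of 4 checked in this way. How often chance would flag such a group was not tested.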

How the results depend on the processing

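No paired analysis was possible because the culture libraries carry no replicate numbers and each group was 1 library, which also leaves no library to leave out. The number of higher genes, 773, was 335 with a pseudocount of 5 CPM, 436 with a filter of 10 CPM, 1957 at 1.5-fold, 166 at 4-fold and 486 over symbols with 1 line only. The number of lower genes, 106, was 161 under TMM scaling, 207 and 47 with pseudocounts of 0.1 and 5 CPM, 67 with a filter of 10 CPM, 194 with the largest line of each symbol, 535 at 1.5-fold, 8 at 4-fold and 60 over symbols with 1 line only. The setting of 1-line symbols was chosen after seeing the data. Higher genes outnumbered lower ones under each of these. The median log2 ratio, 0.12, was -0.01 (-0.0058) under TMM scaling, 0.13 and 0.094 with the lower and higher pseudocount, 0.084 without a filter, 0.10 with a filter of 10 CPM and 0.11 with the largest line. With the largest line 709 of the 773 and 97 of the 106 calls were shared, and Hmga1 turned to 2.13. Under TMM scaling, both other pseudocounts and a library total without the delivered genes, all 12 highest and all 12 lowest genes stayed at least 2-fold apart, and with the largest line 12 and 11 did. Of 82 counts of list members, 10 moved under TMM scaling, 10 with the largest line and 34 with a pseudocount of 5 CPM. Under TMM scaling the medians of the Toll-like receptor and NF-kB, interferon-stimulated, neurotrophic, amyloid precursor, amyloid clearance, lysosome, synaptic, and mural and fibroblast lists turned negative. Depth limits the ratios of genes with few or no control counts, and the spread between cultures is unknown for every ratio.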

Other observations

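Among neural progenitor markers, Hes1, a target of Notch signalling, was higher in the N+F library, with 5.51 CPM in the hippocampal control and 24.1 CPM with N+F. In the cortical pair Hes1 was 9.58 and 4.92 CPM. The median of the 15 progenitor markers that reached 1 CPM was -0.05.

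Of 10 oligodendrocyte markers that reached 1 CPM 2 were at least 2-fold lower (20%, against 0.767% of all genes), Mobp and Mag. Positive ratios numbered 2, and the median log2 ratio was -0.74. Of the 10, 2 reached 1 CPM only in the control and 1 only with N+F. Mbp, myelin basic protein, was 59.7 and 31.1 CPM in the hippocampal pair, under 2-fold. In cortical glia Mbp was 0.873 CPM in the control and 180 CPM with N+F. Of 7 endothelial markers that reached 1 CPM 3 were higher (42.9%, against 5.6% of all genes), Tie1, Kdr and Itm2a. Of these, Tie1 and Kdr reached 1 CPM only with N+F. The summed level of the list was 135 CPM in the control and 132 CPM with N+F. Tie1 had no control count and 2.17 CPM with N+F. Choroid plexus markers had a median of -0.12, and Clic6 was the higher one, with 0.12 and 4.32 CPM against 58.2 CPM in untreated glia. Blood markers stayed under 1 CPM in both libraries.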
